A study of Mus musculus with 8 samples.

Results

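The genes of fatty acid oxidation and lipid handling were compared between control and double heterozygous outflow tracts (OFTs) of the mouse heart. The list held 44 genes named by their function in this pathway, and it was drawn up with earlier results of these data known. Of these, 43 were among the 14608 genes of the deposited table, and 1, *Ppara*, a nuclear receptor of fatty acid metabolism, was not in it.

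The data were RNA-seq of whole OFT tissue at embryonic day 11.5. Of the libraries, 4 were labelled control and 4 were labelled Mib1V943F/+ *Gata6*STOP/+, that is, double heterozygotes. *Mib1* encodes a ubiquitin ligase that activates NOTCH ligands, and the V943F allele alters its sequence. *Gata6* encodes a zinc finger transcription factor of heart development, and the STOP allele carries a premature stop codon. Both alleles are germline, so every cell of the mutant tissue carries them, no single heterozygote was compared here, and the 2 alleles cannot be told apart. The genotype of the controls is given only as control. Each library is a pool, and the labels and the methods of the study differ in the number of individuals per pool and of pools per genotype, which leaves both the embryos behind a library and the number of separate pools uncertain. The p-values measure only the spread between these libraries.

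Libraries held between 10669420 reads on listed genes, in control replicate 2, and 30469165, in mutant-labelled replicate 3. One read was worth between 0.0325 and 0.0948 CPM (counts scaled to the library total), and the members had between 144 and 7768 reads in a library. For *Gata6*, a targeted gene, the level was 262 ± 18.5 CPM under the control label and 249 ± 36.1 CPM under the mutant label (SD, n = 4 each), with overlap. *Mib1*, also targeted, stood at 122 ± 15.6 and 128 ± 6.62 CPM, with overlap. The study reports from quantitative PCR that *Gata6* mRNA was reduced as predicted in these mutants, a reduction not seen here. The RNA of these genes therefore does not check the labels, and the groups are named below by label only. Over all genes, mutant-labelled replicate 2 was the lowest library for 26.2% and the highest for 27.3% of genes, and control replicate 2, the shallowest library, for 22.3% and 22.1%. The other 6 libraries were each the lowest or the highest for between 5.68% and 11.9% of genes, so 1 library of each group stood apart, in both directions.

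Fatty acids enter a cell through transporters and lipases, are bound by small carrier proteins and are activated to acyl-CoA. The carnitine shuttle carries the acyl group into the mitochondrion, where each turn of beta-oxidation removes a short fragment by dehydrogenation, hydration, a further oxidation and thiolysis. Malonyl-CoA, the first product of fatty acid synthesis, blocks entry at the carnitine step. The adult heart draws most of its energy from fatty acids, whereas the embryonic heart relies more on glycolysis.

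In mutant-labelled OFTs, 37 of the 43 genes (86%) had a log2 fold change below 0, against 49.6% of all genes in the table. The median log2 fold change was -0.14 for the members and 0.001 for all genes. *Eci1*, *Acacb* and *Crat* fell by the likelihood ratio test of edgeR with Benjamini-Hochberg adjustment, a call that 0.554% of all genes received in that direction. DESeq2 called these 3 genes and *Esrra* as lower, against 1.16% of the genes it tested. No member was called higher by either tool.

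limma on log2(CPM + 0.5), the main test, left 0 of 43 members and 0% of all genes past an adjusted p of 0.05, and so did the quasi-likelihood test of edgeR. At an unadjusted limma p under 0.05, 15 members (34.9%) were lower, against 6.62% of all genes, and 0 members were higher, against 5.45%. All 4 mutant-labelled libraries lay below all 4 control-labelled libraries for 9 members (20.9%), against 3.9% of all genes. These 9 genes were *Eci1*, *Acacb*, *Crat*, *Esrra*, *Acadvl*, *Acads*, *Etfb*, *Etfa* and *Acaa1a*. Without control replicate 2 the lower members at an unadjusted limma p numbered 15, and without mutant-labelled replicate 2 they numbered 19. The 3 calls of the likelihood ratio test depended on single libraries. Without control replicate 3 it called 0 members, and without control replicate 1 it called only *Eci1*. *Crat* was also lost when control replicate 2 or either of the mutant-labelled replicates 1 and 3 was left out. *Cpt1b* was added without control replicate 4 and *Lpl* without mutant-labelled replicate 4. Calls over all genes moved as well, from 107 with every library to 24 without control replicate 3 and 51 without control replicate 1. They numbered 46 without control replicate 2, and 142 and 38 without mutant-labelled replicates 1 and 3. Without control replicate 4 they numbered 209, and without mutant-labelled replicate 4 they numbered 144.

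**Figure D1:**
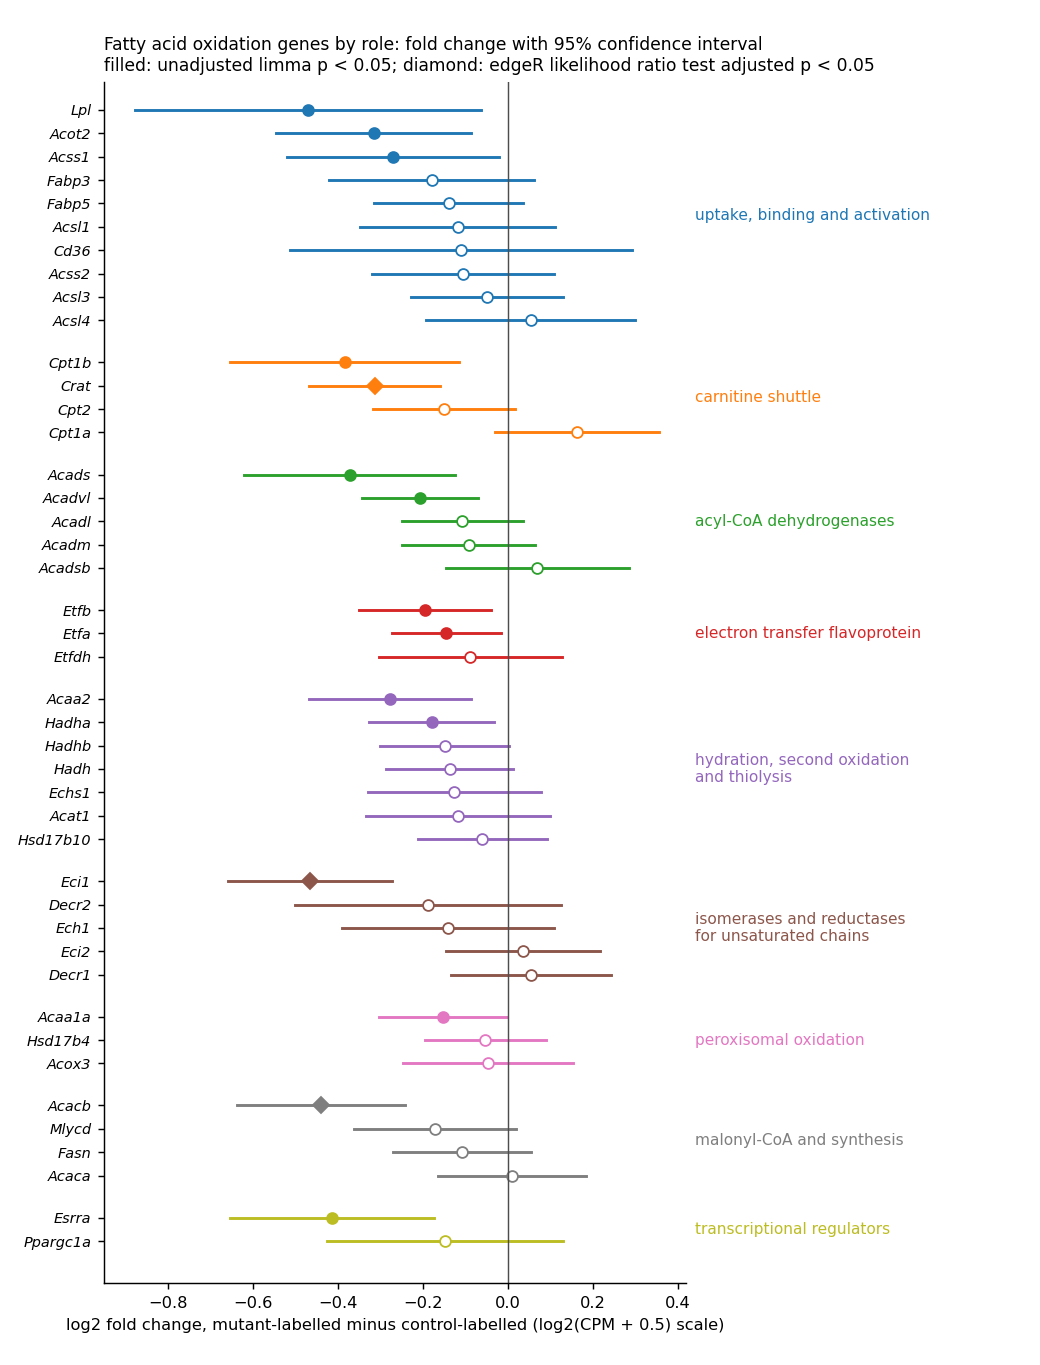
Log2 fold change (mutant-labelled minus control-labelled, log2(CPM + 0.5) scale) of the 43 genes, grouped by role, with 95% confidence intervals from limma. Filled points have an unadjusted p under 0.05 and the 3 diamonds passed the likelihood ratio test of edgeR, and 37 of 43 points lie below 0.

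The OFT holds heart muscle beside other cell types, and heart muscle markers were lower as well. The 15 cardiomyocyte markers include sarcomere genes such as *Tnnt2*, *Actc1* and *Ttn*. At an unadjusted limma p under 0.05, 14 were lower, against 6.62% of all genes, and 0 were higher, against 5.45%. The likelihood ratio test called 7 of the markers lower, against 0.554% of all genes. The summed level of the 15 markers was 32486 ± 2162 CPM in control-labelled and 25291 ± 1668 CPM in mutant-labelled libraries. This was a ratio of 0.779 and a log2 difference of -0.36. The sums ran from 29463 to 34601 and from 23429 to 27451 CPM and did not overlap.

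The summed level of the 43 fatty acid genes was 3657 ± 159 CPM in control-labelled and 3288 ± 98.3 CPM in mutant-labelled libraries. By limma, *Eci1*, *Acacb*, *Esrra*, *Acads*, *Cpt1b* and *Lpl* had a log2 fold change below the log2 difference of the summed markers. The other 37 members were at or above it. These are unlike measures, a difference of mean log2 values against a ratio of mean sums. By the ratio of mean CPM, *Acads* (0.7791) lay just above the summed markers (0.7785), and the others named stayed below. The sum is weighted towards markers with high levels, such as *Myh7* at 10362 CPM in control-labelled libraries. By limma, single markers had log2 fold changes from -2.09 (*Nppa*) to -0.12 (*Myl7*), with a median of -0.34. All the members named lay inside this range, and *Myl2*, at -0.56, lay below every member. The part of cardiomyocyte content in the lower levels was not tested, and in bulk tissue fewer cells of a type and less RNA per cell cannot be told apart. Markers of fat and liver cells, which are rich in these enzymes, were absent from the table (0 of 6 listed). At an unadjusted limma p under 0.05, 6.62% of all genes were lower and 5.45% higher. By that measure, of 5 smooth muscle markers 0 were lower and 1 was higher. Of 7 endothelial and endocardial markers 2 were lower. No cushion mesenchyme (7), epicardium (5), erythroid (6) or macrophage (6) marker passed an unadjusted p of 0.05. Of 4 measured neural crest, glia and neuron markers 1 was higher, also by the likelihood ratio test, and of 3 measured epithelial markers 0 passed. The likelihood ratio test called 107 of all 14608 genes in either direction. These short lists hold too few genes for a comparison with such shares.

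**Figure D2:**
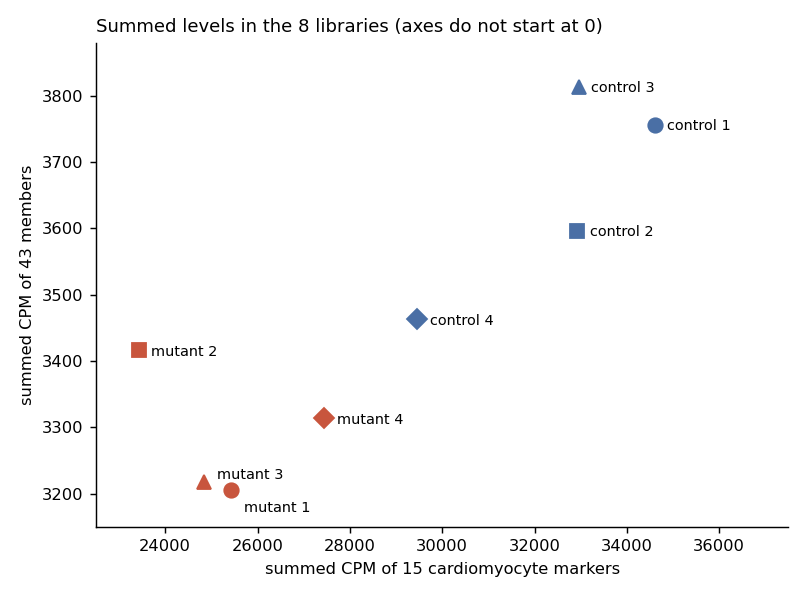
Summed CPM of the 43 fatty acid genes (vertical) against summed CPM of 15 cardiomyocyte markers (horizontal) in each of the 8 libraries, with axes that do not start at 0. The 4 control-labelled libraries start at 3463 CPM on the vertical and 29463 CPM on the horizontal axis, and the 4 mutant-labelled libraries lie below these values on both.

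Promoter windows are shown for *Eci1*, *Acacb* and *Esrra*, called by at least 1 count tool. *Crat*, also called, had no entry. The window of *Acadvl*, 1 of 2 member windows with a GATA motif, is shown as well. The other, that of *Eci2* (log2 fold change 0.04), is not shown. Each window holds 250 bases before and 50 after the RefSeq start site on GRCm38.p6, and 36 of the 44 genes had one. The letters searched on both strands were AAGGTCA, the half-site of ESRRA and related receptors, TCAAGGTCA, which contains it, AGATAA, bound by GATA factors, and GGGCGG, the GC box. Capitals mark these matches. The windows of *Eci1* (chr17:24426433-24426732, plus strand), *Acacb* (chr5:114165268-114165567, plus strand), *Esrra* (chr19:6921759-6922058, minus strand) and *Acadvl* (chr11:70015379-70015678, minus strand) are given 5′ to 3′ on the strand of the gene.
Eci1: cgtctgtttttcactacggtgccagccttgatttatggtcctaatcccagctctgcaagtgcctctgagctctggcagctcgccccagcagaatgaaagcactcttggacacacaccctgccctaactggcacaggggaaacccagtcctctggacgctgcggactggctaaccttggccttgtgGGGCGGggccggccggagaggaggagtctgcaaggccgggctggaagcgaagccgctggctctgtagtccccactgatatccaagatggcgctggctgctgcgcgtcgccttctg
Acacb: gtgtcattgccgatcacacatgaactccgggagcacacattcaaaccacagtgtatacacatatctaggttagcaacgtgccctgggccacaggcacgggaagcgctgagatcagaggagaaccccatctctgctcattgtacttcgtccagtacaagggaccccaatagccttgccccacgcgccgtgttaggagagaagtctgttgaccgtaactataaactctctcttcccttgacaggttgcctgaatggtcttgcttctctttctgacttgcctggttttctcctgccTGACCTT
Esrra: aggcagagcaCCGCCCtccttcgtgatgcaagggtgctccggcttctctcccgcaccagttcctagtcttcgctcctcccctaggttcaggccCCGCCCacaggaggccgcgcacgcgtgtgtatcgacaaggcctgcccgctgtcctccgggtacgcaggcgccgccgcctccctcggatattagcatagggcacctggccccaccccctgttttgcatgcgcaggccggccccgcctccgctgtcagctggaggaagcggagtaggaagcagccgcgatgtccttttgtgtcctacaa
Acadvl: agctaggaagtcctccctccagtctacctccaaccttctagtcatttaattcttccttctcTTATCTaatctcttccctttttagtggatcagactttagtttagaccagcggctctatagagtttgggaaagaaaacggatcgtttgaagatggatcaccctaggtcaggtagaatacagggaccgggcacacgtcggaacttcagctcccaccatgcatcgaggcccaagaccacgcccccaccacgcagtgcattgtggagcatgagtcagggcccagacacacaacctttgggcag

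The GC box was in 26 of the 37 member windows (70.3%), against 35.7% of all 32851 RefSeq windows. These windows were not limited to the genes of the deposited table, and a share among expressed genes was not computed. It occurs once in the window of *Eci1* and at 2 places in that of *Esrra*. AAGGTCA was in 2 member windows, those of *Acacb* and *Acadm* (5.41%), against 4.72% of all windows, and TCAAGGTCA was in none, against 0.423%. AGATAA was in the windows of *Acadvl* and *Eci2* (5.41%), against 11.2%. The RefSeq window of *Acacb* lies inside the gene as annotated (chr5:114146535-114250761). The windows of *Hadha* and *Hadhb*, which encode the 2 subunits of the mitochondrial trifunctional protein, share 228 bases. Their RefSeq start sites lie 273 bases apart in opposite directions. The gene coordinates place the starts closer, at chr5:30155162 for *Hadha* (minus strand) and chr5:30155248 for *Hadhb* (plus strand).

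The 10 genes grouped under uptake, binding and activation include the thioesterase *Acot2*, which acts against activation. In this group 3 were lower at an unadjusted limma p under 0.05, *Acot2* among them, against 6.62% of all genes. None passed an adjusted test. *Lpl*, lipoprotein lipase, which frees fatty acids from circulating lipoproteins, stood at 114, 75.2, 83.7 and 92.5 CPM in control-labelled libraries, in replicate order, against 76.8, 46.3, 55.1 and 90.9 CPM with the mutant label. The groups overlapped, with mutant-labelled replicates 2 and 3 low and replicates 1 and 4 within the controls. The log2 fold change was -0.47 ± 0.19 (SE; limma adjusted p = 0.378; exact permutation p = 0.171), and -0.31 without mutant-labelled replicate 2. *Acot2*, a mitochondrial thioesterase that releases fatty acids from acyl-CoA, stood at 22.4, 22.3, 21.6 and 24.2 CPM in controls and at 21.7, 15.9, 16.2 and 19.1 CPM in mutant-labelled libraries. Reads of *Acot2* and of its close paralog *Acot1* may not be fully separable, and *Acot1* stood at 24.5 ± 2.06 and 26.1 ± 4.46 CPM. *Acss1*, a mitochondrial acetyl-CoA synthetase, stood at 23.6, 26.8, 23.6 and 20.5 CPM against 21.1, 17.6, 16.9 and 22.8 CPM, with overlap.

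*Cd36*, a fatty acid transporter, stood at 38.3, 27.6, 44.4 and 37.7 CPM in controls and 25.2, 49.7, 32.8 and 31.5 CPM in mutant-labelled libraries. The widest spread was within the mutant-labelled group, where replicate 2 was the highest and replicate 1 the lowest of all 8 libraries. *Fabp3*, the fatty acid binding protein of heart muscle, stood at 106, 124, 131 and 105 CPM against 91.8, 129, 96.5 and 96.3 CPM, with only mutant-labelled replicate 2 inside the control range. Its log2 fold change was -0.18, and -0.29 without that library. The other members of the group, *Fabp5* and the activating enzymes *Acsl1*, *Acsl3*, *Acsl4* and *Acss2*, had log2 fold changes from -0.14 to 0.05.

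The carnitine shuttle showed its 2 entry enzymes on opposite sides of 0. *Crat*, carnitine acetyltransferase, which buffers the acetyl-CoA pool, stood at 77.8, 75.8, 82.3 and 69.6 CPM in controls and at 58.1, 60.1, 62.1 and 65.0 CPM in mutant-labelled libraries. Every mutant-labelled library lay below every control, and *Crat* fell by 0.31 ± 0.07 on the log2 scale (SE; edgeR likelihood ratio test, adjusted p = 0.0289; limma adjusted p = 0.204). *Cpt1b*, the muscle form of carnitine palmitoyltransferase 1, the rate-limiting step of entry, stood at 124, 106, 114 and 91.7 CPM against 94.7, 63.6, 88.7 and 88.5 CPM. Only mutant-labelled replicate 1 reached the control range, and the log2 fold change was -0.38 ± 0.12 (SE; limma adjusted p = 0.30).

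*Cpt1a*, the form that prevails in liver, stood at 64.7, 49.3, 55.6 and 53.9 CPM in controls and at 56.6, 65.7, 65.2 and 62.1 CPM in mutant-labelled libraries. Its log2 fold change was 0.16 ± 0.09 (SE; limma adjusted p = 0.467), the highest value among the 43 genes. Control replicate 1 was as high as the mutant-labelled libraries. Without control replicate 1 the log2 fold change was 0.23 (limma adjusted p = 0.393), and without control replicate 2 it was 0.10 (limma adjusted p = 0.807). *Cpt2*, the enzyme of the inner membrane, had a log2 fold change of -0.15.

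**Figure D3:**
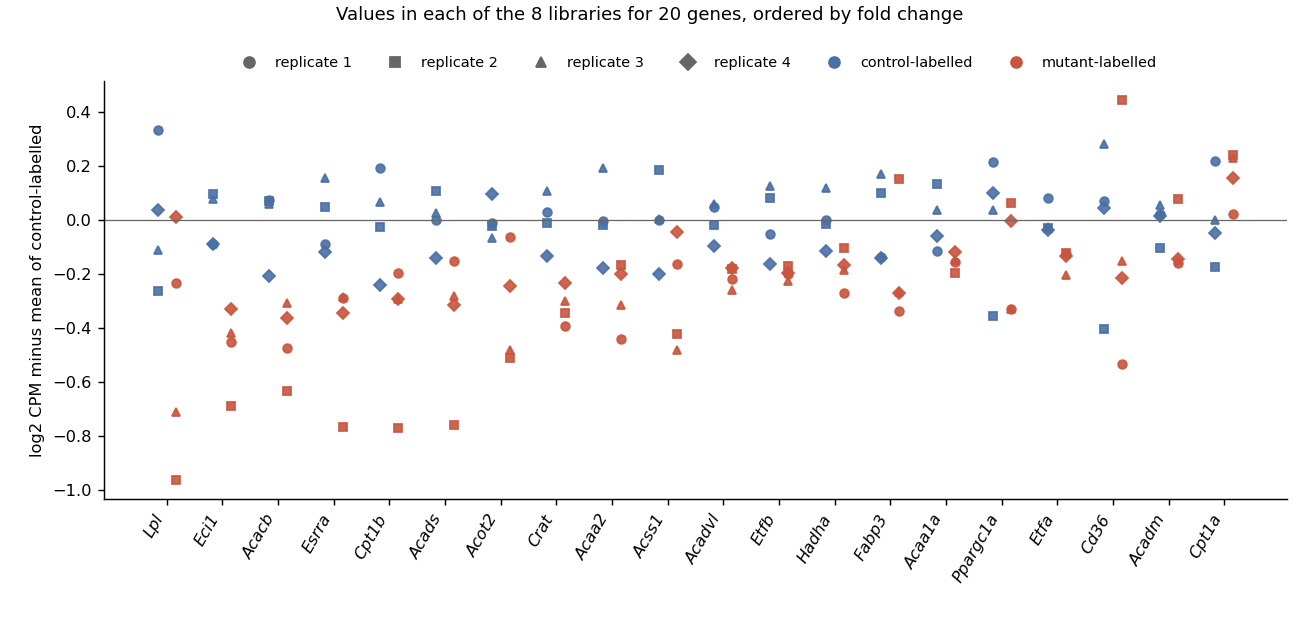
Log2 CPM of 20 genes in each of the 8 libraries, relative to the mean of the control-labelled libraries, with symbols for replicates 1 to 4 and genes ordered by fold change. Mutant-labelled replicate 2 (square) is the lowest point for *Lpl*, *Eci1*, *Acacb*, *Esrra*, *Cpt1b*, *Acads*, *Acot2* and *Acaa1a* and the highest for *Cd36*, *Acadm* and *Cpt1a*.

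The 15 genes of the mitochondrial cycle had values below 0 in 14 cases, against 49.6% of all genes, and 6 were lower at an unadjusted limma p under 0.05, against 6.62%. None passed an adjusted test. Their summed level was 1881 ± 88.6 CPM in control-labelled and 1696 ± 86.8 CPM in mutant-labelled libraries. Mutant-labelled replicate 2, at 1822 CPM, lay inside the control range, which began at 1788 CPM, and the other 3 lay at 1639, 1639 and 1686 CPM.

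The acyl-CoA dehydrogenases take the first oxidation step and differ in the chain length they accept. *Acadvl*, for very long chains, stood at 82.5, 78.6, 83.1 and 74.5 CPM in controls and 68.4, 70.3, 66.5 and 70.5 CPM in mutant-labelled libraries, with no overlap and a log2 fold change of -0.21 ± 0.06 (SE; limma adjusted p = 0.276). *Acads*, for short chains, stood at 84.4, 90.9, 86.0 and 76.7 CPM against 76.1, 49.9, 69.5 and 67.8 CPM, and mutant-labelled replicate 2 was far below the rest. The log2 fold change was -0.37, and -0.25 without it. *Acadm*, for medium chains, stood at 122, 112, 124 and 121 CPM against 107, 126, 108 and 108 CPM. Mutant-labelled replicate 2 was here the highest of all libraries, the reverse of its place in *Acads*. *Acadl*, for long chains, had a log2 fold change of -0.11 and *Acadsb*, for branched short chains, of 0.07.

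Electrons from these enzymes pass to the electron transfer flavoprotein. Its alpha subunit *Etfa* stood at 130.1, 120.4, 121 and 119.7 CPM in controls and 112, 113, 107 and 112 CPM in mutant-labelled libraries. Its beta subunit *Etfb* stood at 114, 124, 128 and 105 CPM against 102, 105, 101 and 103 CPM. Neither subunit overlapped between groups, with log2 fold changes of -0.14 ± 0.06 and -0.19 ± 0.07 (SE; limma adjusted p = 0.383 and 0.346). With a trend over GC content removed the values were -0.20 for *Etfa* and -0.11 for *Etfb*, in the opposite order. *Etfdh*, which hands the electrons to the respiratory chain, had a log2 fold change of -0.09.

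All 7 genes of hydration, second oxidation and thiolysis had values below 0, from -0.28 to -0.06. *Hadha*, the alpha subunit of the trifunctional protein, stood at 278, 275, 302 and 257 CPM in controls and 231, 259, 245 and 248 CPM in mutant-labelled libraries, and replicate 2 alone reached the control range. *Acaa2*, a thiolase, stood at 103, 101, 117 and 90.7 CPM against 75.8, 91.5, 82.7 and 89.4 CPM, and replicate 2 again reached the lowest control. Their log2 fold changes were -0.18 ± 0.07 and -0.28 ± 0.09 (SE; limma adjusted p = 0.356 and 0.291). *Hadhb*, the beta subunit, had a log2 fold change of -0.15.

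Unsaturated chains need isomerases and reductases before the cycle can go on. *Eci1*, a mitochondrial enoyl-CoA isomerase (ENSMUSG00000024132, chr17:24426641-24439348, plus strand, GRCm38), stood at 45.4, 51.6, 50.9 and 45.4 CPM in controls and at 35.3, 30.0, 36.1 and 38.5 CPM in mutant-labelled libraries. Every mutant-labelled library lay below every control, and *Eci1* fell by 0.46 ± 0.09 on the log2 scale, or 27.7% (SE; edgeR likelihood ratio test, adjusted p = 0.00276; DESeq2 adjusted p = 0.00105; limma adjusted p = 0.142). It had the smallest p among the members in each of these tests. *Eci2*, which acts in peroxisomes and mitochondria, had a log2 fold change of 0.04, *Decr1* of 0.05, *Ech1* of -0.14 and *Decr2* of -0.19. Of the 3 peroxisomal genes, the thiolase *Acaa1a* stood at 64.7, 76.9, 71.8 and 67.2 CPM against 62.8, 61.2, 63.2 and 64.6 CPM, with a gap of under 1 CPM between the groups. Its log2 fold change was -0.15, and -0.08 with the GC trend removed. *Acaa1b*, a close paralog whose reads may not be fully separable from it, was not in the table.

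Malonyl-CoA is made by 2 acetyl-CoA carboxylases. *Acacb*, the form at the outer mitochondrial membrane whose product restrains carnitine palmitoyltransferase 1, stood at 70.6, 70.6, 70.03 and 58.1 CPM in controls and at 48.3, 43.3, 54.3 and 52.3 CPM in mutant-labelled libraries. The groups did not overlap, and *Acacb* fell by 0.44 ± 0.09 on the log2 scale, or 26.4% (SE; edgeR likelihood ratio test, adjusted p = 0.00623; limma adjusted p = 0.177). *Acaca*, the cytosolic form that feeds synthesis, was at 69.9 ± 7.77 and 70.1 ± 2.47 CPM, a log2 fold change of 0.01 (95% confidence interval -0.16 to 0.18). *Fasn*, fatty acid synthase, had a log2 fold change of -0.11 and *Mlycd*, which removes malonyl-CoA, of -0.17.

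Of the regulators, *Esrra* encodes a nuclear receptor that activates genes of oxidative metabolism. It stood at 47.0, 51.7, 55.7 and 46.1 CPM in controls and at 41.0, 29.4, 41.0 and 39.4 CPM in mutant-labelled libraries, with no overlap. The log2 fold change was -0.41 ± 0.11 (SE; DESeq2 adjusted p = 0.0380; edgeR likelihood ratio test, adjusted p = 0.0616; limma adjusted p = 0.240). *Ppargc1a*, its coactivator, stood at 60.3, 40.6, 53.4 and 55.7 CPM against 41.4, 54.3, 41.3 and 51.8 CPM, with overlap.

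Ratios of paired forms within a library do not depend on the scaling of that library. The log2 ratio of *Cpt1b* to *Cpt1a* was 0.96 ± 0.15 in control-labelled and 0.41 ± 0.33 in mutant-labelled libraries (SD, n = 4), a difference of -0.55. Without the log, the ratio was 1.91, 2.15, 2.03 and 1.69 in control-labelled libraries against 1.67, 0.967, 1.36 and 1.42 with the mutant label, in replicate order. The groups did not overlap, though control replicate 4 and mutant-labelled replicate 1 were close. The log2 ratio of *Acacb* to *Acaca* was -0.05 ± 0.19 and -0.50 ± 0.14, a difference of -0.45, also with no overlap. Both had an exact permutation p of 0.0286, the smallest that 4 against 4 allows, and 0.0714 after Benjamini-Hochberg adjustment over the 5 pairs. *Fabp3* to *Fabp5*, *Acss1* to *Acss2* and *Acsl1* to *Acsl4* differed by -0.04, -0.16 and -0.17 on the log2 scale, with overlap in each (exact permutation p = 0.686, 0.314 and 0.40).

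**Figure D4:**
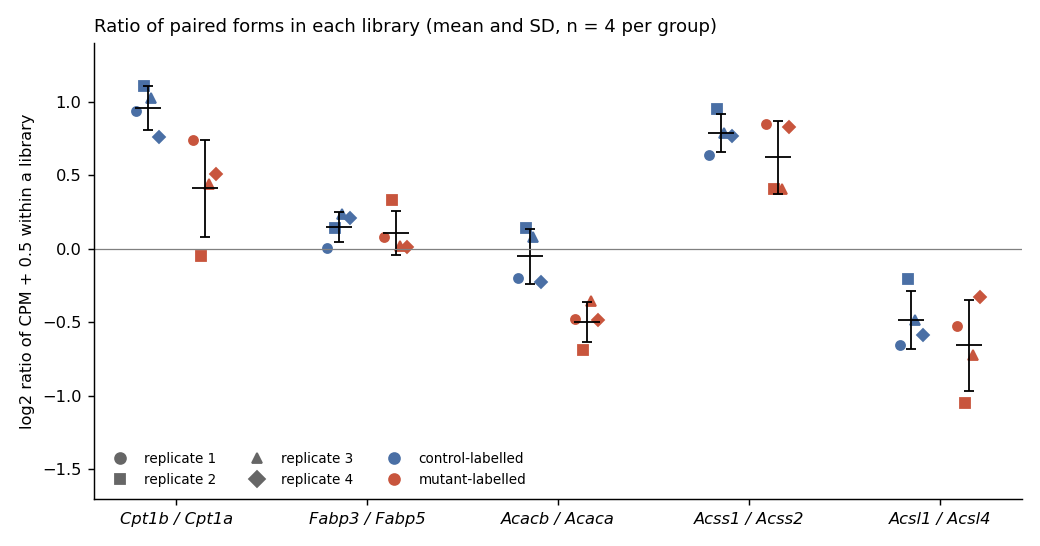
Log2 ratio of CPM + 0.5 between paired forms within each library, with group mean and SD (n = 4). The groups are apart for *Cpt1b* over *Cpt1a* (difference -0.55) and *Acacb* over *Acaca* (difference -0.45) and overlap for the other 3 pairs.

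Levels were compared between genes per kilobase of the longest protein-coding transcript, in the control-labelled libraries. The highest were *Fabp3* at 142 ± 15.9, *Etfb* at 132 ± 11.9, *Fabp5* at 106 ± 9.93 and *Acadl* at 104 ± 6.05 CPM per kb, and the first pair lay within their spread, as did *Fabp5* and *Acadl*. The lowest were *Acss2* at 4.61 and *Acox3*, a peroxisomal oxidase, at 5.40 CPM per kb. *Cpt1b* was 2.91 times *Cpt1a* and *Acacb* 1.04 times *Acaca*. Order and ratios depend on the length taken for a gene. *Fabp5* held rank 3 here but rank 13 with the length of all merged exons, and with the median coding transcript *Etfb* held rank 1 and *Crat* rank 3. With merged exons the ratios were 4.42 and 1.71, and with the median transcript 1.44 and 0.101, so the order of *Acacb* and *Acaca* is not settled by these data.

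A wider list of 123 genes of lipid metabolism held 113 in the table, of which 7 (6.19%) were lower and 5 (4.42%) higher at an unadjusted limma p under 0.05, shares near those of all genes (6.62% and 5.45%). The median log2 fold change was -0.05. The likelihood ratio test called 2 of the 113, both lower, against 0.554% of all genes called lower. *Ppargc1b*, a coactivator related to *Ppargc1a*, stood at 17.2, 15.8, 16.01 and 12.1 CPM in controls and at 11.8, 9.49, 11.2 and 10.1 CPM in mutant-labelled libraries (log2 fold change -0.50; edgeR likelihood ratio test, adjusted p = 0.0396). *Bdh1*, a ketone body dehydrogenase, stood at 13.2, 14.8, 10.9 and 10.3 CPM against 9.71, 5.74, 6.34 and 8.45 CPM (log2 fold change -0.68; edgeR likelihood ratio test, adjusted p = 0.0426). Neither gene overlapped between the groups. *Acot13*, a thioesterase, had a log2 fold change of -0.30, and the elongases *Elovl2* and *Elovl4* had 0.44 and 0.41. None of these 3 passed an adjusted test.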

How the data were processed

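RNA-seq of E11.5 OFT gave 8 libraries, 4 per group as the labels give them. According to the methods of the study, adapters were removed with cutadapt 1.18, 60 bp reads were quantified with RSEM 1.2.3 on GRCm38, genes with 1 CPM in at least 3 samples were kept, and TMM factors were computed with edgeR 3.32.1 on R 4.0.3. CPM after TMM normalization is the unit of the deposited values, and all 8 columns were used. Every gene of the deposited table had 1 CPM or more in at least 4 libraries, which is stricter than the filter given in the methods. All values were whole reads within 0.01 once divided by the worth of 1 read, and these reads entered the count tests. Read numbers speak for counting error only.

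limma 3.58.1 (R 4.3.3), with a trend, was run on log2(CPM + 0.5) over all 14608 genes, adjusted by Benjamini-Hochberg at a threshold of 0.05. Fold changes on this scale understate the change of low genes. edgeR 4.0.16 and DESeq2 1.42.0 were run on the recovered reads. Single values and ratios were tested by a two-sided exact permutation test over 70 relabellings. As a check of the code, the fits were run on simulated reads with 200 genes changed and the same spread set for every gene. No simulated library stood apart by design. The simulation therefore does not bear on the differing calls of limma and the count tools.

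The members and all gene lists were chosen with earlier results of these data known. Genes are given in every library if they had an unadjusted limma p under 0.05, no overlap between groups or a likelihood ratio test call, or were among 10 fixed genes of the pathway; of the wider list, the 6 with the smallest limma p were selected, of which 1 is not reported here. Gene lengths for levels per kb were defined 3 times: merged exons and median coding transcripts were used first and replaced by the longest coding transcript after their values were seen. The cause of the differences in length was not tested. Alternatives were other pseudocounts, a filter at a mean of 5 CPM, column-sum scaling, removal of a GC trend, a replicate block, and leaving out each library.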

Additional observations from a re-analysis of the deposited data

Results flagged for a closer look

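Single libraries stood far from the other 3 of their group in 11 cases among the 96 groups of 4 examined (86 gene groups and 10 ratio groups), by Dixon's criterion at the 95% level, which chance passes in about 1 in 20 groups. Mutant-labelled replicate 2 accounted for 7 of them. It was high for *Fabp3* (129 CPM, others 91.8 to 96.5), *Acadm* (126 CPM, others 107 to 108), *Acadsb* (58.1 CPM, others 43.7 to 45.7), *Echs1* (119 CPM, others 93.2 to 95.9) and *Eci2* (83.4 CPM, others 66.8 to 67.9). It was low for *Decr2* (13.2 CPM, others 21.3 to 22.1) and *Esrra* (29.4 CPM, others 39.4 to 41.0). Control replicate 4 was low for *Hadh* (108 CPM, others 121 to 123) and *Acacb* (58.1 CPM, others 70.03 to 70.6). For *Etfa*, control replicate 1 was high (130.1 CPM, others 119.7 to 121) and mutant-labelled replicate 3 was low (107 CPM, others 112 to 113).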

How the results depend on the processing

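Of 340 values of the 20 named genes under 17 alternatives, 332 kept their direction and side of the threshold, 7 newly passed it (*Eci1*, *Acacb* and *Crat* with both count tools, edgeR's likelihood ratio test and DESeq2, and *Esrra* with DESeq2) and 1 reversed: *Cd36* ran from -0.29 to 0.027 with single libraries left out, above 0 without mutant-labelled replicate 1. Members past the adjusted threshold numbered 0 with limma, 3 with the likelihood ratio test and 4 with DESeq2, and over all genes 0, 107 and 194. Leaving out 1 library at a time, the likelihood ratio test called 0 to 4 members and 24 to 209 of all genes. Under the same omissions limma left 11 to 19 members lower and 0 to 1 higher at an unadjusted p (*Cpt1a*, without control replicate 1 or mutant-labelled replicate 1). The median of the members was then -0.18 to -0.12. Column-sum scaling gave 12 members lower and 0 higher, while over all genes it turned 967 lower and 796 higher into 740 and 1161. Same-numbered libraries did not deviate together (correlations -0.19 to 0.03), and the numbers were not taken as pairs. With a single library per number and group, these correlations cannot exclude a pairing. With a replicate block 12 members were lower and 0 passed adjustment. Paired tests of the ratios are too small in this design to pass the threshold. The level of *Cpt1b* over *Cpt1a* per kb moved from 2.91 to 4.42 (merged exons) and 1.44 (median transcript), and that of *Acacb* over *Acaca* from 1.04 to 1.71 and, reversed, 0.101.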
